A study of Caenorhabditis elegans with 4 samples.

Results

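The Hox cluster of the nematode Caenorhabditis elegans lies on chromosome III and holds the genes lin-39, ceh-13, mab-5 and egl-5. LIN-39 binding there was read as every deposited peak that overlapped the 350001 bp of chromosome III that begin at position 7500000 in genome build WormBase WS220. Within the window, peaks were taken by position alone, whatever their width or score. The members and lists themselves were chosen with earlier results of these data known. In all, 12 of 2196 deposited peaks fell in the window, 7 of 1874 in the combined list of the series, 3 of 239 in the list of ChIP replicate 1 and 2 of 83 in that of replicate 2.

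The peaks come from chromatin immunoprecipitation with sequencing (ChIP-seq) in L2 larvae, hermaphrodites grown at 20 °C. All 4 samples, 2 LIN-39 ChIP and 2 input DNA replicates, were of strain OP18. Every sample thus carried the mutation unc-119(ed3) on chromosome III and the transgene wgIs18, and no group lacked it. wgIs18 holds unc-119(+) as its marker and the fusion lin-39::TY1::EGFP::3xFLAG, and was made by bombardment, with 3 outcrosses. The labels place the fusion protein in the normal pattern of lin-39. They name no mutation of the resident lin-39 gene and no number of transgene copies. Chromatin of whole animals was precipitated through the GFP tag, so the lists do not tell in which cells a site was bound, and the input samples entered here with no peak list.

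Hox genes encode homeodomain transcription factors that give cells their position along the head-to-tail axis. In the worm, LIN-39 acts in the mid-body, where it keeps vulval precursor cells from fusing and directs the fates and migrations of neuroblasts. CEH-13, related to labial of the fly, acts in the front of the embryo, MAB-5 in the posterior body, and EGL-5, related to Abdominal-B, in the tail. Hox factors bind DNA together with homeodomain cofactors, and Hox genes are known in several animals to be regulated by Hox proteins, their own included.

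The RefSeq gene table, of the later assembly WBcel235, was used for names and neighbours alone. It orders the 4 genes as lin-39 (locus tag CELE_C07H6.7), ceh-13 (CELE_R13A5.5), mab-5 (CELE_C08C3.3) and egl-5 (CELE_C08C3.1). They form 2 pairs. No protein-coding gene lies between lin-39 and ceh-13, which are separated by 6 noncoding genes, among them the long noncoding RNA gene linc-57 and the microRNA gene mir-231. Between mab-5 and egl-5 lies 1 protein-coding gene, cyk-7, whereas 37 protein-coding genes, from lgc-12 to bath-15, separate ceh-13 from mab-5. On the outer side lin-39 is flanked by lig-4, which encodes a DNA ligase, and egl-5 by egl-45. The other Hox genes of the worm, php-3 and nob-1, also lie on chromosome III, past 894 further protein-coding genes counted from egl-5. Because that table belongs to another build than the peaks, it was not used to assign peaks to genes, and peaks are named by position.

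LIN-39 peaks were concentrated at one end of the window. The first 4 of the 7 combined peaks lay within 41110 bp, which is 11.7% of the window, and covered 85.9% of those bases. After them no combined peak was listed for 169476 bp. The last 3 peaks, together 652 bp wide, were scattered over the remaining 289919 bp. Each peak has a q-value, a p-value adjusted for the number of tests, which scores the evidence for enrichment of ChIP reads over a control and does not measure the amount of binding. Scores are given below as -log10 q, so that higher values are more significant.

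**Figure D1:**
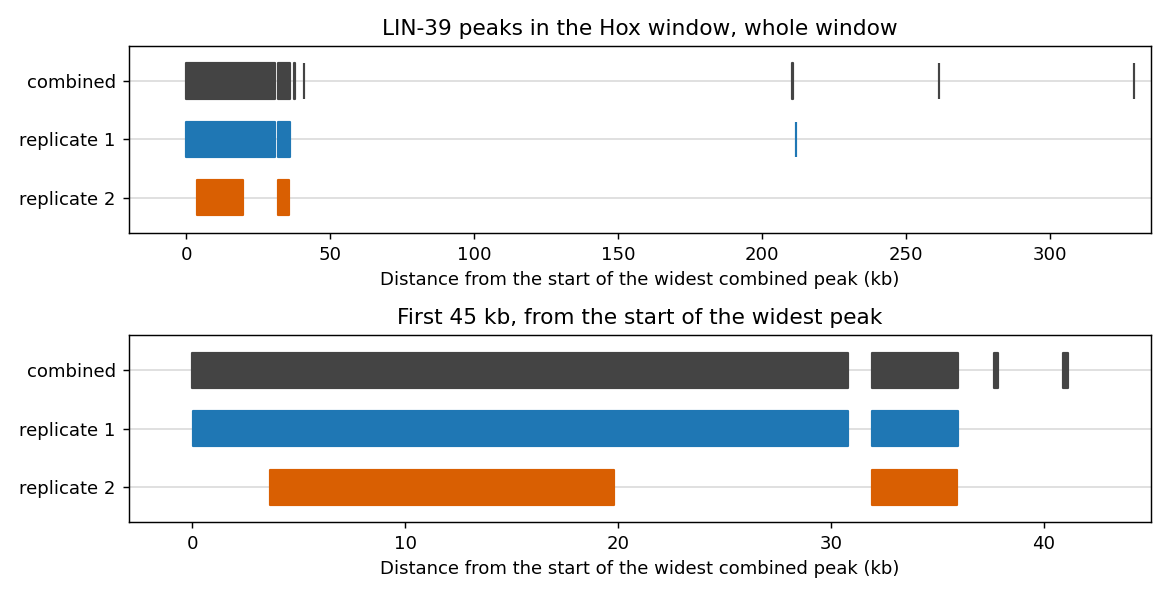
Peaks of the 3 lists in the Hox window, as bars to scale along the distance in kb from the start of the widest combined peak, for the whole window (top) and its first part (bottom). The widest peak and its neighbour are present in all 3 lists, with the widest peak 30794 bp long in the combined list and 16156 bp in replicate 2, and the remaining combined peaks have no bar in either replicate.

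The first and widest peak, III:7518972-7549765, had a combined -log10 q of 164.8, with 46.0 in replicate 1 and 23.4 in replicate 2. It ranked 1 in every list. In -log10 q it stood at 4.77 times the next peak of the combined list, 2.58 times the next of replicate 1 and 2.05 times the next of replicate 2. Its width was 152 times the median of the combined list (203 bp), 106 times that of replicate 1 (291 bp) and 35.9 times that of replicate 2 (450 bp). The next widest combined peak was its neighbour in the window, at 4072 bp. Outside the window the widest peak of replicate 1 was IV:14032496-14034406, at 1911 bp, and that of replicate 2 was IV:14032565-14034456, at 1892 bp.

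The 3 versions of the widest peak were nested. Replicate 1 began 23 bp and ended 3 bp inside the combined interval and covered 99.9% of it. Replicate 2 began 3650 bp and ended 10988 bp inside it and covered 52.5%. Both replicates therefore shared a core of 16156 bp, III:7522622-7538777. The flanks of that core were listed in replicate 1 and in the combined list and had no peak in replicate 2. At the 57 combined peaks outside the window that both replicates held, replicate 2 covered a median of 85.1% of the combined peak (interquartile range 74.2 to 89.6%), and 5 of the 57 had a lower share than the widest peak. The ratio of replicate 2 to replicate 1 width was 0.525 at the widest peak and had a median of 0.998 at those 57 peaks (interquartile range 0.927 to 1.16, range 0.513 to 7.53), so that the widest peak lay near the low end of that range. Where several replicate peaks lay on a combined peak, their bases were added for coverage, and the one with most bases on it gave the width.

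The second peak, III:7550875-7554946, followed the first after a gap of 1109 bp and was the second widest peak of every list. Its -log10 q came to 18.9 in the combined list, to 4.78 in replicate 1 and to 3.69 in replicate 2. It spanned 4072 bp in the combined list and 3996 and 4006 bp in replicates 1 and 2, and so varied by far less than that of its neighbour. Its rank was 20 of 1874, 52 of 239 and 49 of 83, in lists whose lengths differ and whose ranks cannot be compared. Among the other 18 of the 20 strongest combined peaks, the widths ran from 374 to 2495 bp with a median of 718 bp. The second window peak was thus wider than every one of them. Its score lay below all 18, whose lowest -log10 q was 19.6, because the set was cut at its own rank of 20.

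Its ends were placed alike in all lists. The replicate 1 peak lay 38 bp inside the combined interval at both ends, and the replicate 2 peak began at the same base and ended 66 bp inside it. Coverage of the combined interval was 98.1% in replicate 1 and 98.4% in replicate 2. At the 57 shared peaks outside the window the highest coverage by replicate 1 was 97.7%, so that both wide window peaks lay above that range in replicate 1. In replicate 2 the range outside reached 100%. The same distance in bp leaves a higher share covered on a wider peak, and the 57 had a median combined width of 519 bp. The shares therefore do not show that the ends of the wide peaks were placed more closely. In base pairs, the distances at the 57 peaks had medians of 34 and 30 bp at the starts and ends of replicate 1, and of 38 and 31 bp, taken without sign, for replicate 2.

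**Figure D2:**
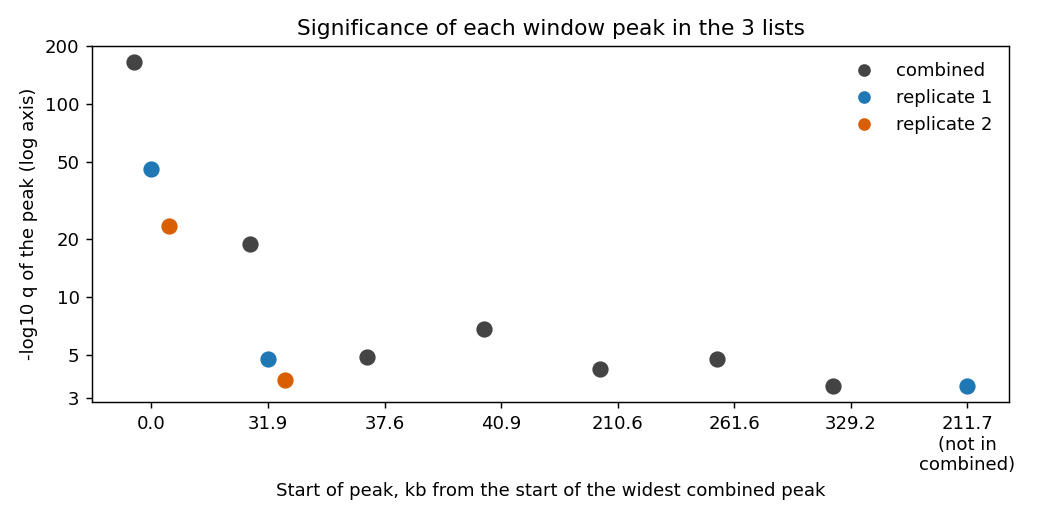
Significance of the window peaks, as -log10 q on a log axis, by the start of each peak in kb from the start of the widest combined peak. Points are single peaks of the combined list and of both ChIP replicates. The widest peak runs from 23.4 in replicate 2 to 164.8 in the combined list, and the 5 narrow combined peaks, between 3.46 and 6.84, have no point of a replicate in their own columns. The last column holds the replicate 1 peak that overlapped no combined peak.

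The gap between the first 2 peaks recurred in replicate 1, where it measured 1150 bp. In replicate 2 it measured 12097 bp, since the first peak stopped earlier there while the second began at the same base as in the combined list. Added together, the first 2 peaks held 97.0% of the combined peak bases of the window, 99.99% of those of replicate 1 and 100% of those of replicate 2.

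The combined scores of these 2 peaks were high for their replicate scores. The combined -log10 q divided by the sum of the -log10 q of replicates 1 and 2 was 2.37 at the widest peak and 2.23 at its neighbour. At the 57 shared peaks outside the window the ratio had a median of 1.18 (interquartile range 1.05 to 1.42), and 1 of them, I:1836207-1838613 with 3.41, was higher. The other 5 shared peaks of chromosome III lay between 1.19 and 1.57, without overlap with the window's values. The q-values of a list depend on its number of tests and reads, neither of which is given, so the ratio describes the lists alone.

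All samples, the input DNA samples included, carry the transgene, which brings further lin-39 sequence into the genome. Reads from the transgene and from the resident gene map to the same place. The control behind the lists is not given. From the lists alone, LIN-39 binding and added copies cannot be told apart at any peak over the sequence that the transgene carries. By the definition of the window, its widest peak lies at the locus of the tagged gene lin-39, where extra transgene copies may add signal. That peak, III:7518972-7549765, held 85.7% of the combined peak bases of the window. Which of the window's peaks lie over the sequence of the transgene was not tested.

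The other 5 combined peaks were narrow. Their widths ran from 98 to 342 bp with a median of 212 bp, close to the median of 203 bp over all combined peaks. Their -log10 q ran from 3.46 to 6.84 with a median of 4.75, against 3.96 over all combined peaks. They held 1080 bp, or 3.00% of the combined peak bases of the window.

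Of these, 2 lay near the wide pair. III:7556604-7556798 (195 bp) began 1657 bp after the second peak and had q = 1.36e-05, at rank 488. III:7559849-7560081 (233 bp) lay 3050 bp further on and had q = 1.43e-07, at rank 188. It was the most significant narrow peak of the window and the only one of the 5 with a q-value of 1e-05 or less.

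The last 3 peaks lay far from the wide pair and from each other. III:7729558-7729899 (342 bp) had q = 6e-05 at rank 760, and III:7780525-7780622 (98 bp), 50625 bp further on, had q = 1.77e-05 at rank 516. After another 67564 bp came III:7848187-7848398 (212 bp), with q = 0.000351 at rank 1324. The first gap, of 169476 bp, ranked 27 by size among the 167 gaps between neighbouring combined peaks of chromosome III, whose median was 50.4 kb. The other 2 gaps ranked 83 and 68. Medians over combined peaks on the rest of chromosome III were 215 bp in width and 3.73 in -log10 q, between the values of these 3 peaks.

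**Figure D3:**
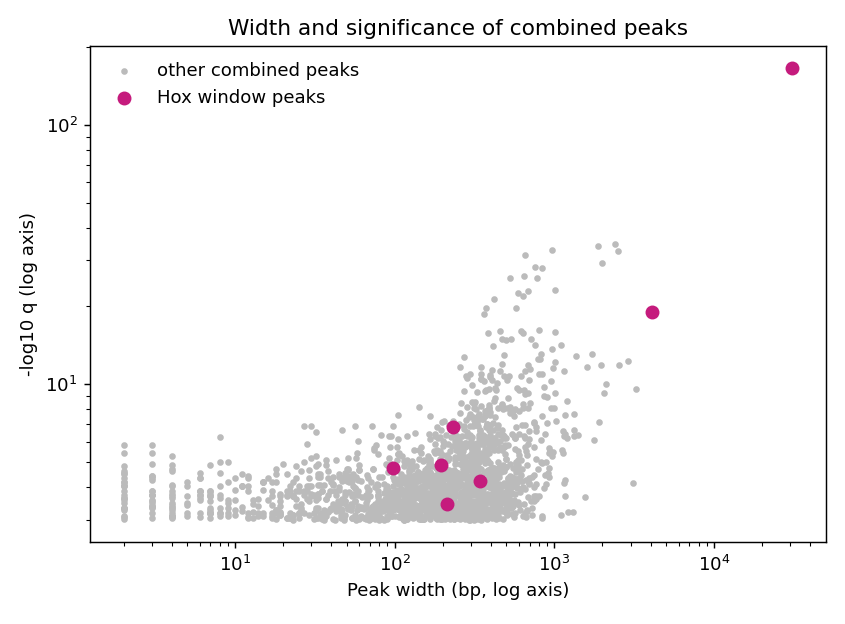
Width in bp against -log10 q for the 1874 combined peaks, both on log axes, with the 7 peaks of the Hox window in colour. The widest peak, at 30794 bp and 164.8, lies apart from all others, its neighbour at 4072 bp lies to the right of peaks of like score, and the 5 narrow peaks lie within the main cloud.

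Replicate support separated the 2 wide peaks from the 5 narrow ones. Overlap by at least 1 bp was counted as presence. Of the 7 combined peaks 2 were present in replicate 1 (28.6%, Wilson 95% interval 8.22 to 64.1%), against 11.3% of all combined peaks, and the same 2 were present in replicate 2, against 4.32%. Presence in both was thus 28.6% in the window and 3.15% over all combined peaks. On the rest of chromosome III it was 5 of 161 (3.11%, 1.33 to 7.06%). The 2 recurring peaks ranked 1 and 20 of 1874, and most combined peaks of like rank were in the replicates too. Among the 50 within 50 ranks of the widest peak, the second window peak included, 45 were in replicate 1 and 37 in replicate 2. Without the widest peak the window's count became 1 of 6 (16.7%, 3.01 to 56.4%). These intervals cover counting error only, and with 7 peaks they are wide. The window's peaks were all listed and are no random sample, and the 2 that recurred are neighbours. The intervals here and below therefore decide nothing about a difference between the window and other peaks.

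None of the 5 narrow peaks was in either replicate (0 of 5, Wilson 95% interval 0 to 43.4%), against 12.4% of all combined peaks in at least 1 replicate. Peaks of like rank were often missing too. Among the 100 combined peaks within 50 ranks of III:7559849-7560081, 40 were in replicate 1 and 13 in replicate 2. Around III:7556604-7556798 the counts were 6 and 1 of 100, and around III:7780525-7780622 they were 8 and 1. Around III:7729558-7729899 and III:7848187-7848398 they were 1 and 2 in replicate 1 and 0 in replicate 2. A missing peak shows only that the site did not pass the authors' threshold in that list, not that it was unbound.

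Most combined peaks ranked near the second wide peak were also in the replicates. Of the 69 combined peaks within 50 ranks of the second peak, 60 were in replicate 1 and 42 in replicate 2. These 69 include the widest peak of the window, the only one wider than the second, and 98.6% of them were narrower. By q-value, 3 of the 7 window peaks were at 1e-05 or less (42.9%, Wilson 95% interval 15.8 to 75.0%), against 23.9% of all combined peaks and 30 of 161 on the rest of chromosome III (18.6%, 13.4 to 25.4%). The interval for the window holds both shares, but its 7 peaks are no random sample, so it decides nothing about a difference.

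Replicate 1 listed 1 further peak in the window, III:7730673-7730675. It was 3 bp wide, with q = 0.000351 at rank 149 of 239, and overlapped no peak of the other lists, whereas both replicate 2 peaks of the window lay on combined peaks, as did 98.8% of the replicate 2 list. The nearest combined peak, III:7729558-7729899, ended 773 bp before it. Of the 239 replicate 1 peaks 89.1% overlapped a combined peak, and of the 26 that did not, 18 were under 50 bp wide and 4 were 3 bp or less.

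The window held more peaks than most of chromosome III, and many more bases under them. It had 20.0 combined peaks per Mb, against 12.0 on the rest of chromosome III and 18.7 over all chromosomes. Peaks covered 10.3% of it in the combined list (35946 bp), 9.93% in replicate 1 (34767 bp) and 5.76% in replicate 2 (20162 bp). On the rest of chromosome III combined peaks covered 0.337%. The window held 0.374% of the combined peaks and 6.62% of their bases. In replicate 1 it held 1.26% of the peaks and 31.4% of the bases, and in replicate 2 it held 2.41% and 34.6%.

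Other stretches of the same length gave a scale for these values. The chromosomes were cut into neighbouring stretches of 350001 bp, of which 37 besides the window lay on chromosome III and 280 in all. Shorter pieces left at chromosome ends were not counted as stretches. The median stretch held 4 combined peaks on chromosome III, with a range of 0 to 13, and of the 37 stretches 2 held more than the 7 of the window and 4 held as many. Over all chromosomes 70 of 280 held more, up to 50 on chromosome I. In bases under combined peaks no stretch exceeded the window. The definition of the window takes in the widest peak, whose 30794 bp alone exceed the combined peak bases of every other stretch. This ranking was thus set by the choice of window. The next full stretch on chromosome III held 4932 bp, the piece of 331210 bp at its right end held 5144 bp in 8 peaks, and the next of all full stretches held 28642 bp on chromosome I. In replicate 1 the highest other stretch held 2337 bp and in replicate 2 it held 2029 bp.

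**Figure D4:**
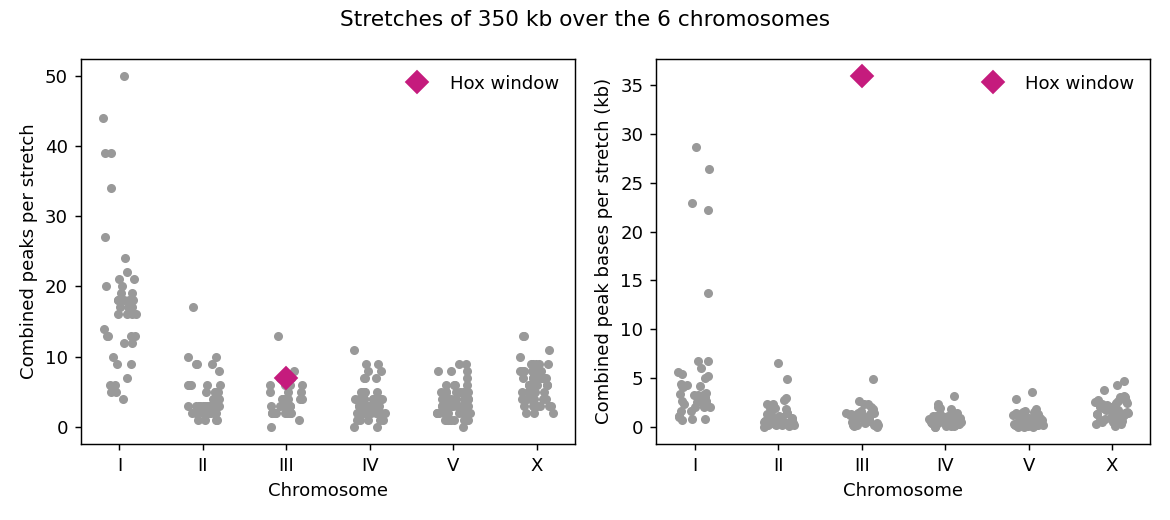
Combined peaks (left) and kb under combined peaks (right) in stretches of 350 kb, by chromosome, with each grey point 1 stretch, spread sideways for clarity, and the Hox window as a diamond. The window holds 7 peaks, within the range of 0 to 13 of chromosome III, and 35946 bp under peaks, above all 280 other stretches. Its widest peak, which the definition of the window takes in, supplies 30794 bp of these.

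Without the widest peak the window held 5152 bp under combined peaks, or 1.47% of its length. The other stretches kept their own widest peaks. The value was above the other 37 full stretches of chromosome III, with their highest value of 4932 bp. It was almost equal to the 5144 bp of the shorter right end piece. Of all 280 other stretches 12 were then higher, but of the 238 on chromosomes other than I only 1 was. The second peak supplied most of the 5152 bp. In a list without both wide peaks the window would hold the 1080 bp of its narrow peaks, beside a median of 966 bp for the other stretches of chromosome III.

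The ends of the window also bore on the count. On its left side no combined peak was listed for 356492 bp before the widest peak, the third largest gap of chromosome III, where the largest measured 466916 bp. The nearest peak on that side, III:7162373-7162479 (107 bp, q = 0.000132), was in neither replicate. On the right side, the last member ended 1602 bp before the edge, and the next peak, III:7854468-7854761 (294 bp), began 4468 bp beyond it. That outside peak had q = 1.08e-11 at rank 58 and was listed in replicate 1 (III:7854486-7854760, q = 1.71e-05) and in replicate 2 (III:7854486-7854741, q = 3.32e-05). It was thus more significant than every narrow peak of the window and, unlike them, present in both replicates. It lay 6069 bp from the last member, whose score was the lowest of the 7.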

How the data were processed

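The data used were 3 peak lists, 1 for each LIN-39 ChIP replicate and 1 combined. Per the file headers and their source column, the authors called the peaks with PeakSeq on WormBase WS220. The deposited score column was read as q-values: multiplied by the peak's number it fell at 0 of 1873, 238 and 82 steps in the combined, replicate 1 and replicate 2 lists (relative tolerance 1e-09), whereas the values alone fell at 886, 73 and 17. Not given in the sources used here are the aligner, caller version, threshold, control and any pooling behind the combined list. The lists hold no read counts, so depth is unknown. Per the labels' protocols, worms were fixed in 2% formaldehyde, quenched in 100 mM Tris, and 10% of the lysate was kept as input.

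Computed here with Python 3.11.15, numpy 2.4.6, scipy 1.17.1 and matplotlib 3.10.9 were widths, gaps, overlaps (at least 1 bp), Wilson intervals, covered bases and values for stretches of equal length, cut outward from the window on chromosome III and from position 1 elsewhere, up to the largest listed coordinate. Pieces shorter than a stretch at chromosome ends were left out of these, and those of chromosome III were counted separately. Overlap and coverage were tested on simulated data. Nothing says whether the replicates were separate cultures. Without read counts or values of the input samples no test across samples was made and no p-value was computed. All peaks of the window were described. Members and lists were chosen with earlier results of these data known. No sequence is shown, since no genome of this build was used here.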

Additional observations from a re-analysis of the deposited data

How the results depend on the processing

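The 7 combined peaks of the window became 3 at a q-value of 1e-05 or less, 8 in a window 100 kb longer at each side and 5 with peaks within 2 kb counted once. They stayed 7 when peaks had to lie wholly inside or to span 50 bp or more. The 35946 bp under them became 35099 bp at the stricter q-value and 5152 bp without the widest peak. Presence of 2 peaks in each replicate became 1 with both lists at 1e-05 or less, since the second peak had larger q-values in both replicates, and stayed 2 when 50% of the shorter or of both peaks had to overlap. Presence in at least 1 replicate was 2 without replicate 1 and 2 without replicate 2. The widest peak measured 30794 bp in the combined list against 30768 bp for replicate 1 and 16156 bp for replicate 2, and the cause of the last was not tested. No paired analysis was possible because the input samples entered with no list and the results come from no test. With no read counts, the lists cannot tell absence of binding from a lack of depth.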

Other observations

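Peaks of 2000 bp or more were rare outside the Hox window. The combined list held 10 such peaks, 2 of them in the window and 8 elsewhere, 6 of the latter on chromosome I. The widths of these 8 ran from 2054 to 3252 bp, with a median of 2510 bp, and 2 were in replicate 1, 3 in replicate 2 and 2 in both. At those 8 loci no replicate peak reached 2000 bp, whereas both wide peaks of the window did so in both replicates. On chromosome III the widest combined peak outside the window, III:13778109-13781226 (3118 bp, q = 7.13e-05), was in neither replicate.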
